A study of Mus musculus with 15 samples.

Results

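The meth response shared by male and female hearts was described over every array of the series, 8 from meth mice and 7 from PBS mice, assigned by the treatment in the sample labels, so that 15 of 15 arrays entered. The question was which transcripts lay higher or lower after meth in both sexes. Meth (methamphetamine hydrochloride), a psychostimulant that releases catecholamines, was injected weekly into the abdomen for 5 months up to a dose of 40 mg/kg, and control mice received phosphate-buffered saline (PBS) at the same times. RNA of the heart of 1 mouse was hybridised to each 1-colour Agilent array, where each probe's Cy3 fluorescence follows the amount of labelled RNA that it binds.

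All mice were C57BL/6 animals with no engineered allele in the labels, young adults at the first dose by the methods, and the hearts came from animals alive at the end of dosing. The 4 male meth and 4 male PBS hearts were divided evenly between 2 trials, 2 hearts of each group in each. The 4 female meth hearts and 3 female PBS hearts belonged to trial 1 by the sample titles, although another field of the labels names trial 2 for 3 of them. The arrays lay on 4 slides, and every slide held both treatments. The 3 female arrays whose labels disagree were those on slide 4. Their 75th percentile of signal before the shift was 461 to 618, beside 323 to 424 on the other arrays. The hour of day at which hearts were taken and the time since the last injection are not given in the sources used here.

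The circadian clock is a transcription loop that runs in nearly every cell of the heart. Arntl and Clock form an activator that binds E-box sequences in the promoters of the Per and Cry genes, whose proteins feed back to block it, and of output genes such as Dbp, whose proteins in turn bind D-box sequences. The nuclear receptors of the Nr1d and Ror families act on Arntl itself through ROR elements, and in cardiomyocytes the loop times the transcription of metabolic and ion channel genes over the day.

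Hearts of both treatments carried the transcripts of cardiomyocytes. All 10 cardiomyocyte markers listed were well above background on all 15 arrays, with the regulatory light chain gene Myl2 the most abundant. Their summed normalized signal, as log2 with 0 at the 75th percentile of an array, ran from 11.84 through 12.07 to 12.28 in meth hearts and from 11.78 through 12.16 to 12.32 in PBS hearts (lowest, median and highest). The groups overlapped, and 0 of 10 markers passed the test described next. In bulk heart RNA, fewer cells of a type and less RNA per cell cannot be told apart.

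A modest set of transcripts moved the same way in both sexes. The average of the male and female effects (meth minus PBS) was fitted for 28358 of 41174 probes, and 751 passed an adjusted p of 0.05 (2.65% of probes tested). Of these, 319 were higher and 432 lower after meth, a split of 351 and 284 with each array shifted by its median and of 83 and 28 with normexp background correction. For genes, each given by its probe with the highest signal, 317 of 14220 passed (2.23%), 198 higher (1.39%) and 119 lower (0.837%). Shared probes were those past the threshold, with the same sign in each sex and well above background on all 15 arrays. They numbered 593 (2.09%), 215 higher and 378 lower, or 241 and 242 with the median shift and 66 and 28 with normexp. Tested within 1 sex, 144 of the 593 passed in males, 160 in females, 37 in both and 326 in neither. With the slide as a block, which compares meth and PBS hearts within a slide, 355 were higher and 695 lower. The replicate number as a block gave 138 and 314, and trial 1 arrays alone gave 39 and 22. Leaving out a single array gave 126 to 223 higher and 162 to 371 lower.

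The shared probes covered 253 genes by their chosen probe, 143 higher and 110 lower. Most changes were small: the median absolute log2 fold change of shared probes was 0.43, with 30 of 215 above 1 and 3 of 378 below -1. The median log2 fold change over all genes tested was 0.0047. In the plot of male against female effects Per2, Slc7a10, Arntl and Spon2 lay near the diagonal, whereas Scgb3a1 and Cyp2f2 were larger in males and Hspa1a was larger in females. The difference between the male and female effects passed for 39 probes (0.138% of those tested), 7 of them shared, and 2458 had an unadjusted p under 0.05.

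**Figure D1:**
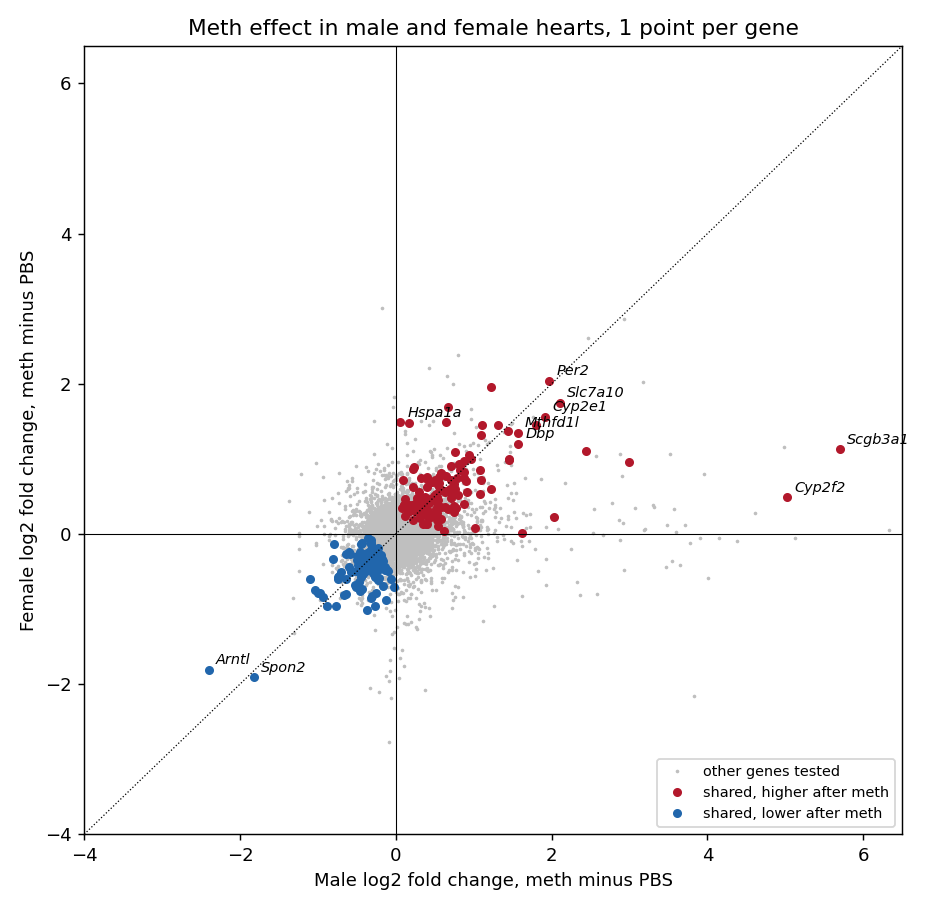
Male log2 fold change (x) against female log2 fold change (y), meth minus PBS, with 1 point per gene tested and shared genes coloured; 6 genes lie outside the axes. Per2, Slc7a10, Arntl and Spon2 moved by similar amounts in both sexes.

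Shared probes that were lower tended to be dim and unnamed. Their median normalized log2 signal was -1.88, with 241 of 378 under the median signal of the probes tested (-1.17), and 232 of 378 had no RefSeq symbol. Shared probes that were higher had a median of -0.28, with 80 of 215 under that signal and 28 without a symbol.

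Repressors of the clock rose. Of the 6 on the list, 5 passed as higher, beside 1.39% of all genes tested. The median log2 fold change was 1.02 over the 6, beside 0.0047 for all genes tested. This and the other lists were written with earlier results of these data known. Per2, a core repressor of the loop, ranged from -1.46 through -1.02 to -0.53 (normalized log2 signal: lowest, median and highest) in meth hearts and from -3.45 through -3.05 to -2.53 in PBS hearts. Every meth array lay above every PBS array, and arrays did not overlap, in either direction, for 70 of 14220 genes (0.492%). Per2 rose 4.02-fold (log2 fold change 2.01, standard error 0.18, adjusted p = 0.000195), by 1.97 in males and 2.04 in females. Within slides its log2 fold changes were 1.97, 1.40, 2.64 and 1.88 on slides 1 to 4, and 1.98 with the slide as a block. It was 1.19 with normexp, and a second Per2 probe gave 0.25 (adjusted p = 0.516).

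Ciart, which represses transcription driven by the Arntl and Clock pair, also passed as higher (adjusted p = 0.000895). Its normalized log2 signal ran from -2.08 through -1.15 to -0.38 in meth hearts and from -5.42 through -4.05 to -2.18 in PBS hearts. All 8 meth arrays were above all PBS arrays, although Ciart was well above background on 13 of 15 arrays, among them 2 of 4 male PBS arrays, and so stands outside the shared probes. The size of its average and male effects is not given, since the other 2 male PBS arrays were not well above background. In females, where every array was well above background, the log2 fold change was 2.03.

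Per3 and Per1, the other period genes, rose less. Per3 ran from -2.96 through -2.10 to -1.45 in meth hearts and from -3.66 through -3.49 to -2.73 in PBS hearts, and 7 of 8 meth arrays exceeded every PBS array. Its log2 fold change was 1.22 (standard error 0.18, adjusted p = 0.00406), 1.25 with the slide as a block and 0.64 with normexp (adjusted p = 0.0866). Per1, which also answers quickly to glucocorticoids and cyclic AMP, lay at 0.21 to 1.08 (median 0.72) after meth and at -0.36 to 0.28 (median -0.19) after PBS. Male arrays did not overlap and female arrays did. Per1 rose by 0.81 (standard error 0.13, adjusted p = 0.00633), with slide values of 0.69, 0.63, 1.34 and 0.39, and missed the threshold with the trial 1 arrays alone (0.68, adjusted p = 0.123).

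The cryptochromes, partners of the period proteins in repression, divided. Cry2 ranged over 0.28 to 0.89 (median 0.56) in meth hearts and over -0.16 to 0.21 (median 0.13) in PBS hearts, with no overlap. It rose by 0.51 (standard error 0.08, adjusted p = 0.00423), for which a second probe, well above background on 13 arrays, gave 0.27 (adjusted p = 0.326) and the trial 1 arrays alone 0.42 (adjusted p = 0.104). Cry1 overlapped between treatments and did not pass (0.26, adjusted p = 0.318).

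**Figure D2:**
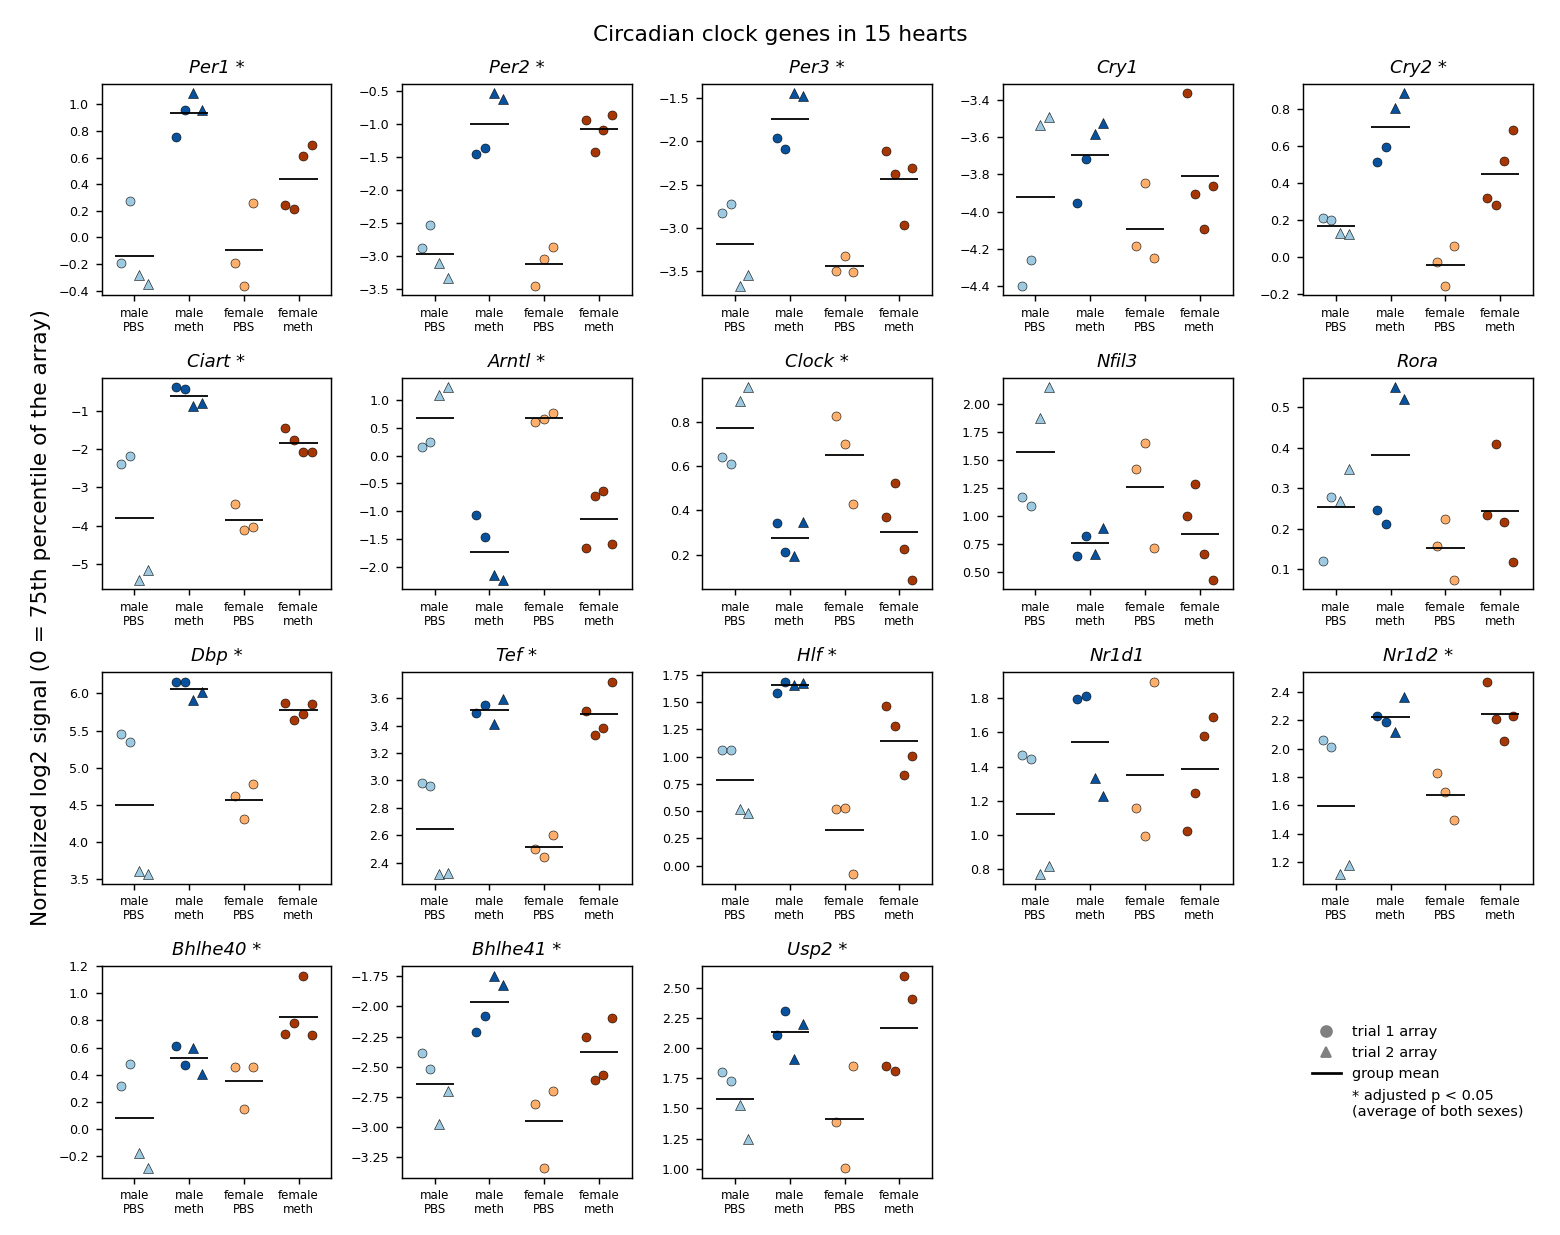
Normalized log2 signal (y) of 18 clock genes in each of 15 hearts by group (x), with circles for trial 1, triangles for trial 2, bars for group means and a star where the average effect passed an adjusted p of 0.05. Per2, Ciart, Cry2, Dbp and Tef were higher and Arntl was lower on every meth array than on any PBS array.

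The activating side fell or did not pass. Of 5 activators and regulators of Arntl tested out of 6 listed, 2 passed, both lower, beside 0.837% of all genes tested. Their median log2 fold change over the 5 was -0.43. Arntl, the partner of Clock, ranged from -2.22 through -1.52 to -0.63 in meth hearts and from 0.15 through 0.66 to 1.22 in PBS hearts. The lowest values were in trial 2 male meth hearts and the highest in trial 2 male PBS hearts, and no arrays overlapped. On average over both sexes Arntl fell by 2.10 on the log2 scale (standard error 0.25, adjusted p = 0.00102), with -2.11 for the slide as a block and -1.73, -1.54, -3.33 and -1.85 within slides 1 to 4.

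Clock itself lay at 0.09 to 0.52 (median 0.28) after meth and at 0.43 to 0.96 (median 0.70) after PBS, with 7 of 8 meth arrays below every PBS array. It fell by 0.43 on the log2 scale (standard error 0.08, adjusted p = 0.0197). Clock missed the threshold with normexp (adjusted p = 0.0511), with the median shift (0.0515), with trial 1 arrays alone (0.236) and for 1 of its 2 other probes (0.0572). It also missed without female PBS replicate 1 (adjusted p = 0.0579), without female PBS replicate 2 (0.0578) or without male PBS trial 2 replicate 2 (0.0517).

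Other members of this list did not pass. Nfil3, a repressor that competes for D-boxes, lay at -0.62 (adjusted p = 0.0907), although it passed with the slide as a block (-0.56, adjusted p = 0.0311) and for its other probe (-0.50, adjusted p = 0.0236). It likewise passed with array weights (adjusted p = 0.0413) and without female PBS replicate 3 (0.0349). The receptor gene Rora did not pass (0.11, adjusted p = 0.407), and Npas2 was well above background on too few arrays to be tested.

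Of the 8 output genes of the clock listed, 7 passed as higher, beside 1.39% of all genes tested, with a median log2 fold change of 0.64 over the 8. Dbp, a D-box activator transcribed directly by the Arntl and Clock pair, ranged from 5.64 through 5.89 to 6.16 in meth hearts and from 3.57 through 4.62 to 5.46 in PBS hearts. Meth hearts lay close together, and PBS hearts spread mainly among males, at 5.46 and 5.34 in trial 1 and 3.61 and 3.57 in trial 2. Dbp rose 2.61-fold (log2 fold change 1.39, standard error 0.18, adjusted p = 0.00224), by 0.97, 1.07, 2.38 and 1.02 within slides 1 to 4 and by 1.37 with the slide as a block.

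Tef and Hlf, relatives of Dbp that bind the same D-boxes, followed. Tef ran from 3.33 through 3.50 to 3.72 after meth and from 2.32 through 2.50 to 2.98 after PBS, with no overlap, and rose by 0.92 (standard error 0.09, adjusted p = 0.00038). Its slide values were 0.76, 0.74, 1.19 and 0.95, with 0.91 as a block. Hlf rose by 0.85 (standard error 0.12, adjusted p = 0.00429), with 6 of 8 meth arrays above every PBS array, and missed with trial 1 arrays alone (0.70, adjusted p = 0.105). Nr1d2, a repressor of Arntl, rose by 0.60 (adjusted p = 0.0223) with 7 of 8 meth arrays above every PBS array. It missed in 6 of 29 limma alternatives, including those that leave out female PBS replicate 2 (adjusted p = 0.0558) or male PBS trial 2 replicate 2 (0.0552).

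The remaining output genes rested on fewer settings. The deubiquitinase gene Usp2 rose by 0.66 (adjusted p = 0.0392), and the repressor genes Bhlhe41 by 0.62 (adjusted p = 0.0305) and Bhlhe40 by 0.46 (adjusted p = 0.0368), with 7, 6 and 6 of 8 meth arrays above every PBS array. Usp2 missed the threshold in 15 of 30 limma alternatives, Bhlhe41 in 13 of 30 and Bhlhe40 in 15 of 29. Leaving out a single array ended the call in 11, 8 and 8 of 15 cases, with an adjusted p of up to 0.0996, 0.0758 and 0.1, each without female PBS replicate 2. Nr1d1, the paralogue of Nr1d2, ranged from 1.02 to 1.81 after meth and from 0.77 to 1.90 after PBS and did not pass (0.22, adjusted p = 0.492).

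Clock changes differed in size between the male trials. For Per2 the log2 fold change was 1.29 in trial 1 males and 2.64 in trial 2 males, for Dbp 0.76 and 2.38, for Tef 0.55 and 1.19 and for Arntl -1.46 and -3.33. The difference between the trials was not tested here, and each trial holds 2 male hearts of each treatment. In both trials, and in females, each of these 4 genes kept its direction. These are parts of the same arrays, and no meth array overlapped a PBS array for these genes. The direction was thus fixed in advance, and nothing further is read from it.

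Promoters of clock genes are shown because many clock genes passed, in either direction, and control sequences of the clock are known. RefSeq promoters of 300 bases around the start of transcription (mouse build GRCm38.p6) were held for 17 of the clock genes listed. They were searched on both strands for the E-box CACGTG, the D-box TTANGTAA, the ROR element TAGGTCA and the glucocorticoid element ACANNNTGT, which are found in 7.15%, 2.32%, 2.61% and 6.85% of 32851 mouse promoters. The E-box occurred in 5 of the 17 genes (Bhlhe41, Ciart, Cry1, Per1 and Tef), the D-box in 1 (Per3), the ROR element in 2 (Arntl and Nfil3) and the glucocorticoid element in 0. A gene was counted if any of its promoters held the motif, and some genes had several promoters. The shares over mouse promoters are per promoter, so they are not in the same unit. Capitals mark the motif, and each sequence reads 5′ to 3′ on the strand of its gene. Ciart lies at chr3:95882179-95882478 on the minus strand and holds 3 E-boxes, and Per1 at chr11:69098699-69098998 on the plus strand and Tef at chr15:81802423-81802722 on the plus strand hold 1 each. Per3 at chr4:151044616-151044915 on the minus strand holds 2 D-boxes, and Arntl at chr7:113207261-113207560 on the plus strand holds 1 ROR element.
Ciart: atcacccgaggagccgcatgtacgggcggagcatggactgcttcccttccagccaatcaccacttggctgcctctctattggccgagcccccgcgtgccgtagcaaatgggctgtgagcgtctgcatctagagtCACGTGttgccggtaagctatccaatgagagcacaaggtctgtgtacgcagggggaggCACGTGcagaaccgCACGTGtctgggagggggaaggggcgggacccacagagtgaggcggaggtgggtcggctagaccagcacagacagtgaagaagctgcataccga
Per1: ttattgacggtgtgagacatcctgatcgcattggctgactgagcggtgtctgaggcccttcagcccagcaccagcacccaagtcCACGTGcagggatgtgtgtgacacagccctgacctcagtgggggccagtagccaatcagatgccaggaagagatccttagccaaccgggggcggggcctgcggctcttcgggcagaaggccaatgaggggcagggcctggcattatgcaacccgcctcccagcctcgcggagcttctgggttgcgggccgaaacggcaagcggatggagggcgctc
Tef: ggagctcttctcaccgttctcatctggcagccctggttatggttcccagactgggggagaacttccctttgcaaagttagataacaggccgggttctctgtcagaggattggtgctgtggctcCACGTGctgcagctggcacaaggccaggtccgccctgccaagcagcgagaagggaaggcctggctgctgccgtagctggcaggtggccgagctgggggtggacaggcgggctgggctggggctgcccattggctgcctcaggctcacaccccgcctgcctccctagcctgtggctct
Per3: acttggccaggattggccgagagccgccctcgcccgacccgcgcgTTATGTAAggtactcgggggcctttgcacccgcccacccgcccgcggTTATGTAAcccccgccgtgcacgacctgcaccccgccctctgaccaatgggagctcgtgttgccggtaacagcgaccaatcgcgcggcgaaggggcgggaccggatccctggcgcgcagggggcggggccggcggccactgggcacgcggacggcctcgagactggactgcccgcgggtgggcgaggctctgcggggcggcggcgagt
Arntl: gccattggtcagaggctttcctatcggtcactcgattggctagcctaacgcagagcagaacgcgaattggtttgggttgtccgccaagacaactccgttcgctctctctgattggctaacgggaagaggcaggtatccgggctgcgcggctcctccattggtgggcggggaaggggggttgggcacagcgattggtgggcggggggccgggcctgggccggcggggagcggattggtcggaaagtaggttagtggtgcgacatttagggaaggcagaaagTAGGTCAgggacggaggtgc
These matches describe letters, and binding was not measured.

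Outside the clock, several shared genes rose by over 1 on the log2 scale. Genes named in this part were chosen for a large change and for arrays that did not overlap within either sex. Their array counts therefore describe the choice and are no support for the change. Slc7a10, an amino acid transporter of fat cells and astrocytes, ran from -3.32 through -2.48 to -1.20 in meth hearts and from -4.92 through -4.30 to -4.07 in PBS hearts, with no overlap. It rose 3.80-fold (log2 fold change 1.93, standard error 0.26, adjusted p = 0.00244), with slide values of 1.83, 2.35, 1.64 and 2.16, 1.97 as a block and 0.78 with normexp (adjusted p = 0.0896). Cyp2e1, a cytochrome P450 that oxidises small solvents, rose 3.34-fold (log2 fold change 1.74, standard error 0.25, adjusted p = 0.0036), with 7 of 8 meth arrays above every PBS array, 1.72 for the slide as a block and an adjusted p of 0.0523 with the replicate block. Slc7a10 and Cyp2e1 peaked in male meth trial 1 replicate 2.

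Mthfd1l, a mitochondrial enzyme of folate metabolism, ranged from -2.05 through -1.29 to -0.89 after meth and from -3.06 through -2.85 to -2.55 after PBS, with no overlap. It rose 2.75-fold (log2 fold change 1.46, standard error 0.16, adjusted p = 0.000622), by 1.51, 1.13, 1.92 and 1.40 within slides 1 to 4, 1.49 as a block and 0.85 with normexp. Fam107a, an actin-binding protein, rose by 0.98 (standard error 0.12, adjusted p = 0.00136) and Tent5b, a noncanonical poly(A) polymerase, by 0.96 (standard error 0.16, adjusted p = 0.00778), each with 8 of 8 meth arrays above every PBS array. With normexp their values were 0.53 and 0.63.

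**Figure D3:**
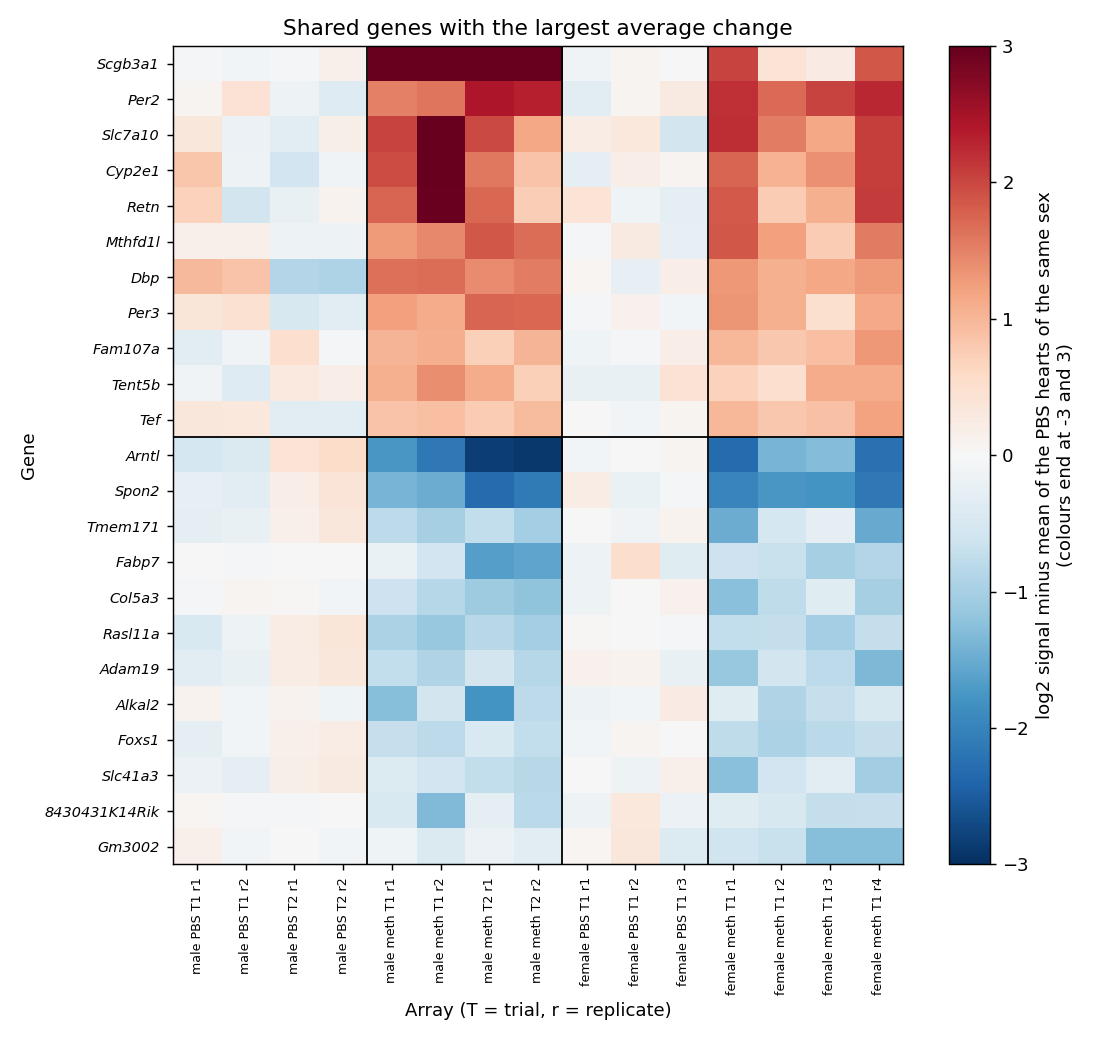
Log2 signal of each array (columns) minus the mean of the PBS hearts of the same sex for 11 higher and 12 lower shared genes (y), red for higher and blue for lower. The genes are among those with the largest average change among shared genes whose arrays do not overlap within either sex.

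Shared decreases were led, after Arntl, by Spon2, a secreted matrix protein of the spondin family. It ran from -1.96 through -0.88 to -0.33 in meth hearts and from 0.01 through 0.74 to 1.64 in PBS hearts, and no arrays overlapped. Spon2 fell by 1.87 on the log2 scale (standard error 0.16, adjusted p = 0.000195), with -1.83 in males and -1.91 in females, and its other probe gave -1.82 (adjusted p = 8.7e-05). Within slides the values were -1.68, -1.34, -2.51 and -1.93, with -1.86 as a block. Lower genes outside the clock were named by the same rule, so their array counts are no support either.

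Col5a3, a fibrillar collagen chain, fell by 0.89 on the log2 scale (standard error 0.12, adjusted p = 0.00224), with 7 of 8 meth arrays below every PBS array, slide values of -0.84, -0.87, -1.11 and -0.81 and -0.91 as a block. Its other probe, well above background on 6 arrays, gave -0.15 (adjusted p = 0.822). Adam19, a membrane metalloprotease needed for heart development, fell by 0.86 (standard error 0.12, adjusted p = 0.0036), and Foxs1, a forkhead factor, fell by 0.74 (standard error 0.07, adjusted p = 0.000195), with 8 and 7 of 8 meth arrays below every PBS array. With trial 1 arrays alone, Col5a3 (adjusted p = 0.0766) and Adam19 (0.0841) missed the threshold, as did 1 of 2 other Adam19 probes (-0.56, adjusted p = 0.104). Rasl11a, a small GTPase, fell by 0.89 (standard error 0.09, adjusted p = 0.00034), with all meth arrays below every PBS array, but gave -0.24 with normexp (adjusted p = 0.823).

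The other named lower genes passed less firmly. Tmem171 fell by 0.92 (adjusted p = 0.0211), Fabp7, a fatty acid binding protein, fell by 0.90 (0.0204), Alkal2, a ligand of the ALK receptor, fell by 0.86 (0.0169) and Slc41a3, a magnesium transporter, fell by 0.72 (0.021). All 4 missed the threshold with normexp, with the replicate block and with trial 1 arrays alone. With normexp, Fabp7 lay at -0.42 (adjusted p = 0.384) and Alkal2 at -0.23 (0.864). Without male PBS trial 2 replicate 2, Tmem171 (adjusted p = 0.0535), Fabp7 (0.0509) and Slc41a3 (0.0528) missed it. Leaving out other single arrays did so in 1 further case each for Tmem171 and Fabp7 and in 2 for Slc41a3. 8430431K14Rik (-0.64, adjusted p = 0.0309) and Gm3002 (-0.61, adjusted p = 0.0382) missed in 14 of 29 and 17 of 30 limma alternatives, with an adjusted p of up to 0.0846 and 0.1 when an array was left out. With normexp, they gave -0.14 and -0.36.

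The 32 gene lists of heart and stress biology held 523 genes tested, of which 37 passed, beside 2.23% of all genes tested, and 16 lists had a member past the threshold. The 37 include the 5 clock repressors, 2 activators and 7 outputs given above. As members were chosen with earlier results of these data known, the count is not read as an enrichment. No list was tested as a set. Glucocorticoid-induced genes had 3 of 14 higher and 1 lower, with a median log2 fold change of 0.28. Mt2, a metallothionein that binds zinc, ranged from 4.13 through 4.64 to 4.93 after meth and from 3.46 through 3.85 to 4.33 after PBS and rose by 0.80 (standard error 0.12, adjusted p = 0.00535), with 7 of 8 meth arrays above every PBS array. Tsc22d3, which encodes the glucocorticoid-induced leucine zipper, ran from 2.77 through 2.94 to 3.39 and from 2.45 through 2.47 to 2.60, without overlap, and rose by 0.47 (standard error 0.07, adjusted p = 0.00661), missing with normexp (adjusted p = 0.0576) and with trial 1 arrays alone (0.0798). The transcription factor gene Cebpd rose by 0.37 (adjusted p = 0.035), missing in 15 of 29 limma alternatives, and Errfi1, an inhibitor of the EGF receptor, fell by 0.27 (adjusted p = 0.0221) with all meth arrays below every PBS array, missing in 7 of 29. With a single array left out, the adjusted p of Cebpd reached 0.0833 (past 0.05 in 10 of 15 cases), and that of Errfi1 0.0547 without female PBS replicate 1.

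**Figure D4:**
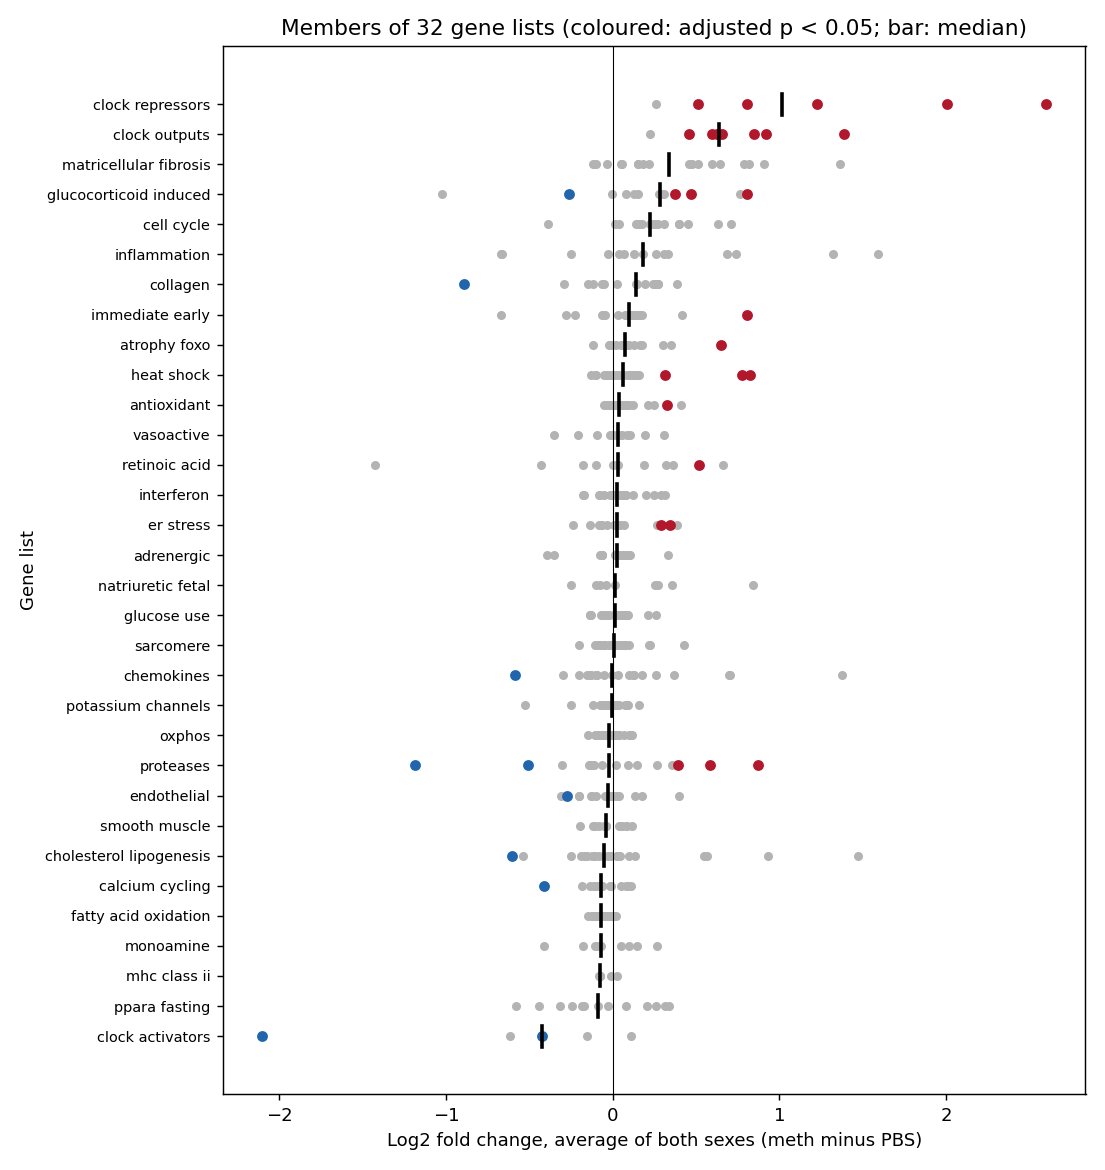
Average log2 fold change (x) of each member of 32 gene lists (y), coloured where the adjusted p was under 0.05 and grey otherwise, with a bar at the median of the list. The medians of clock repressors and outputs lie to the right of 0 and that of clock activators to the left.

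Proteases and their inhibitors moved in both directions, 3 of 16 higher and 2 lower, with a median of -0.023. Over all genes tested, 1.39% passed as higher and 0.837% as lower. Timp3, a matrix-bound inhibitor of metalloproteases, ranged from 4.63 through 4.79 to 4.95 after meth and from 4.07 through 4.21 to 4.40 after PBS, and rose by 0.58 (standard error 0.07, adjusted p = 0.000851). It did not overlap between treatments, and slide values were 0.56, 0.60, 0.59 and 0.50, with 0.57 as a block. Mmp14, a membrane-bound metalloprotease, fell by 0.51 (standard error 0.10, adjusted p = 0.0203) with all meth arrays below every PBS array, missing in 8 of 30 limma alternatives, with an adjusted p of up to 0.0618 when a PBS array was left out. Adamts4, an aggrecanase, also passed as lower but was well above background on 6 of 15 arrays and on 0 of 4 female meth arrays, so no fold is given, and it missed the threshold in 13 of 28 limma alternatives, 6 of them with an array left out. Timp4, a relative of Timp3 (0.39, adjusted p = 0.0193), was named after its values were seen.

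Single members of further lists passed, beside 2.23% of all genes tested. Ier3, an early response gene, ranged from 1.46 through 2.01 to 2.24 after meth and from 0.89 through 1.09 to 1.34 after PBS, without overlap, and rose by 0.81 (standard error 0.09, adjusted p = 0.001), the single member past the threshold among 18 immediate early genes. Aldh1a1, which makes retinoic acid, rose by 0.52 (adjusted p = 0.00812), 1 of 12 retinoic acid genes, with 5 of 8 meth arrays above every PBS array. In the endoplasmic reticulum stress list 2 of 17 passed, the pseudokinase gene Trib3 (0.34, adjusted p = 0.00465) and the transcription factor gene Ddit3 (0.29, adjusted p = 0.0353), and in the antioxidant list 1 of 22, the heme oxygenase gene Hmox1 (0.33, adjusted p = 0.0429), each with 6 of 8 meth arrays above every PBS array. The forkhead factor gene Foxo3 rose by 0.65 (adjusted p = 0.0243), 1 of 16 atrophy and FoxO genes, and was well above background on 14 arrays. Of these, Ddit3 missed in 17 of 29 limma alternatives, Hmox1 in 19 of 29, Foxo3 in 7 of 28, Trib3 in 4 of 30 and Aldh1a1 in 3 of 29. With an array left out, the adjusted p reached 0.0941 for Ddit3, 0.112 for Hmox1 and 0.0735 for Foxo3.

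Lower single members included Slc8a1, the sodium-calcium exchanger (-0.41, adjusted p = 0.0368, 1 of 16 calcium cycling genes), Cx3cr1, the fractalkine receptor (-0.58, adjusted p = 0.0443, 1 of 21 chemokine genes), and Cldn5, an endothelial tight junction protein (-0.28, adjusted p = 0.0425, 1 of 17 endothelial genes). They lay below every PBS array on 1, 5 and 5 of 8 meth arrays. Col5a3 was the only member past the threshold among 15 collagens. Slc8a1 missed in 22 of 32 limma alternatives, Cx3cr1 in 20 of 29 and Cldn5 in 23 of 29, with an adjusted p of up to 0.0929, 0.102 and 0.105 when an array was left out.

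Heat shock genes passed in 3 of 25, beside 2.23% of all genes tested, with a median of 0.059 over the list. The increase of these 3 lay in female hearts. Hspa1a, an inducible chaperone of the HSP70 family, had a log2 fold change of 1.49 in females and 0.06 in males, and Hspa1b, its near-identical neighbour, 1.48 and 0.16. Female arrays did not overlap between treatments and male arrays did. On average Hspa1a rose by 0.77 (adjusted p = 0.000457) and Hspa1b by 0.82 (adjusted p = 0.000457), and the male effect minus the female effect was -1.43 (adjusted p = 0.00397) and -1.32 (adjusted p = 0.0081). Dnaja1, a co-chaperone of HSP70, was higher in females (0.78) and lower in males (-0.16), so that its average of 0.31 (adjusted p = 0.0118) is not shared. With a common treatment effect in place of the average, Hspa1a (adjusted p = 0.106), Hspa1b (0.0683) and Dnaja1 (0.387) missed the threshold. With the replicate block 0 probes passed for the difference between the sexes, and without the arrays of disputed trial 2 did. A second Hspa1b probe, well above background on 9 arrays, gave 0.39 (adjusted p = 0.252), and Hspa1b gave 0.48 with normexp.

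The other 16 lists, with 272 genes tested, had 0 members past the threshold. Among genes of energy supply, these were fatty acid oxidation (21 genes, median log2 fold change -0.071), oxidative phosphorylation (36, -0.022), glucose use (22, 0.016) and PPAR-alpha targets of fasting (13, -0.089). Behind the averages, medians were -0.20 in males and 0.060 in females for fatty acid oxidation, and -0.14 in males and 0.11 in females for oxidative phosphorylation. Fabp3, the heart fatty acid binding protein, ran from 9.09 through 9.70 to 9.85 in meth hearts and from 9.04 through 9.79 to 9.90 in PBS hearts, and Cox6a2, a muscle subunit of cytochrome oxidase, from 9.28 through 9.61 to 9.76 and from 9.25 through 9.73 to 9.75. Both ranges overlapped almost fully.

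Contractile and catecholamine genes had 0 past the threshold as well. These were the sarcomere list (24 genes, median 0.0070), natriuretic and fetal genes (9, 0.016), potassium channels (16, -0.0051) and smooth muscle genes (12, -0.039). The natriuretic peptide gene Nppa ran from 8.62 through 9.09 to 9.56 in meth hearts and from 8.22 through 8.76 to 9.20 in PBS hearts, and 3 of 8 meth arrays exceeded every PBS array. The adrenergic list (18, 0.024), the monoamine list (9, -0.072) and vasoactive genes (13, 0.031) were without a call. Male and female medians had opposite signs for the sarcomere (-0.073 and 0.061), adrenergic (0.025 and -0.015) and monoamine (-0.12 and 0.098) lists.

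Some of the lists without calls had medians away from 0. Matricellular and fibrosis genes (18) had a median of 0.34, with 15 above 0 and 3 below, and cell cycle genes (19) a median of 0.23, with 18 above 0 and 1 below. Their medians were 0.41 and 0.40 in males and 0.095 and 0.11 in females, a difference that was not tested. Inflammation genes (15) had a median of 0.18, interferon genes (22) of 0.027 and MHC class II genes (6) of -0.075. Interferon genes had medians of 0.15 in males and -0.11 in females, and MHC class II genes of 0.18 in males and -0.30 in females, so these averages near 0 join opposite signs. Sparc, a collagen-binding matrix protein, ran from 4.52 through 4.74 to 5.12 in meth hearts and from 4.43 through 4.60 to 5.00 in PBS hearts, with overlap.

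Members past the threshold occurred in 5 of 14 lists of tissue markers, in the epithelial list only through a gene not well above background outside male meth hearts. Over all genes tested, 1.39% passed as higher and 0.837% as lower. White fat had 3 of 6 tested members higher, with a median of 1.20, and all 6 were well above background on all 15 arrays. Retn (resistin) rose by 1.62 (adjusted p = 0.0139), Cfd (adipsin) by 1.41 (adjusted p = 0.00661) and Cidec, a lipid droplet protein, by 1.28 (adjusted p = 0.0236), with 7, 7 and 4 of 8 meth arrays above every PBS array. Summed white fat signal ran from 7.68 through 7.98 to 8.70 in meth hearts and from 7.33 through 7.67 to 8.01 in PBS hearts, and its most abundant gene, Fabp4, which endothelial cells also express, did not pass (0.13, adjusted p = 0.686). The highest sum was that of male meth trial 1 replicate 2, the heart in which Slc7a10, Cyp2e1 and Retn peaked. The same array had the highest sum in 7 of 14 marker lists, among them the atrial, secretory airway, ciliated, epithelial, B cell and red cell lists, and the part of white fat in the result was not tested. With the replicate block, Retn (adjusted p = 0.0703), Cfd (0.0622) and Cidec (0.125) missed the threshold, and Cidec also missed in 3 of 15 cases with an array left out (adjusted p up to 0.0663, without female PBS replicate 1).

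Of 8 secretory airway markers tested, 2 (Scgb3a1 and Cyp2f2) were well above background on all 15 arrays. Both were higher and shared by the rule, which asks for the same sign in each sex and not for a call in each. Cyp2f2 had a log2 fold change of 5.02 in males and 0.49 in females. The other members also passed as higher on average over the sexes, but the filter partly fixes that count, so nothing is read from it. Bpifa1 and Reg3g were well above background on 0 of 7 PBS arrays and entered the test through meth hearts only. Ltf was well above background on 0 of 4 male PBS and 1 of 3 female PBS arrays. In females Scgb1a1 was lower (-1.48) and did not pass. Scgb3a1, a secretoglobin of airway cells, ran from -1.56 through 1.56 to 4.65 in meth hearts and from -2.19 through -1.97 to -1.73 in PBS hearts. Every meth array was above every PBS array, and the highest 4 were male. Scgb3a1 rose by 3.41 on the log2 scale (standard error 0.31, adjusted p = 0.000244), with slide values of 3.59, 3.58, 5.45 and 1.03 and 3.42 as a block. Within the sexes Scgb3a1 rose by 5.70 in males (adjusted p = 3.1e-05) and by 1.13 in females, where it did not pass (adjusted p = 0.36). The effect was larger in males by 4.57 (adjusted p = 0.0102), a difference for which 0 probes passed with the replicate block. Summed airway signal was 5.20 to 7.52 in male meth, -0.89 to -0.69 in male PBS, 0.23 to 2.07 in female meth and 0.71 to 1.62 in female PBS hearts, with a median of 3.64 over all meth and -0.69 over all PBS hearts. Female sums overlapped between treatments, and the part of airway transcripts in the result was not tested.

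Ciliated airway markers passed in 3 of 5 tested (Tmem212, Dynlrb2 and Foxj1) and epithelial markers in 1 of 5 (Cdh1), and these calls rested on male hearts. Female medians of these lists are not given, since Tmem212, Foxj1 and Cdh1 were not well above background on any female array. Tmem212, Foxj1 and Cdh1 were well above background in male meth hearts only, on 4, 4 and 3 of 4 arrays, so that they entered the test through the group in which they were high, and no fold is given. Dynlrb2 was well above background on 0 of 4 male PBS arrays, and its female log2 fold change was -0.06. Summed ciliated signal ran from -1.07 through -0.50 to 1.18 after meth and from -1.09 through -0.99 to -0.81 after PBS. Summed epithelial signal ran from 0.90 through 1.60 to 2.34 after meth and from 0.53 through 1.17 to 1.33 after PBS. The ciliated marker Sntn and the epithelial marker Cldn4 were not well above background on any array. The part of either cell type in the result was not tested.

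Liver markers passed in 2 of 5 tested, both higher, while the other 3 were below 0 and the median of the list was -0.22. Ahsg, a plasma glycoprotein, ran from 1.70 through 2.01 to 2.73 after meth and from 1.01 through 1.26 to 1.88 after PBS, with 6 of 8 meth arrays above every PBS array. It rose by 0.77 (standard error 0.13, adjusted p = 0.00911), 0.78 in males, 0.75 in females and 0.75 with the slide as a block, and missed with normexp (adjusted p = 0.0501) and with trial 1 arrays alone (0.092). Mup1, a major urinary protein, was higher on every meth array than on the PBS arrays of the same sex but was well above background on 0 of 4 male PBS arrays, so no fold is given. Summed liver signal, led by Ahsg, ran from 1.81 through 2.64 to 3.52 in meth hearts and from 1.12 through 1.33 to 2.21 in PBS hearts. Alb (albumin) was well above background on 7 arrays and did not pass, and Ttr was on none. The part of liver transcripts in the result was not tested.

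**Figure D5:**
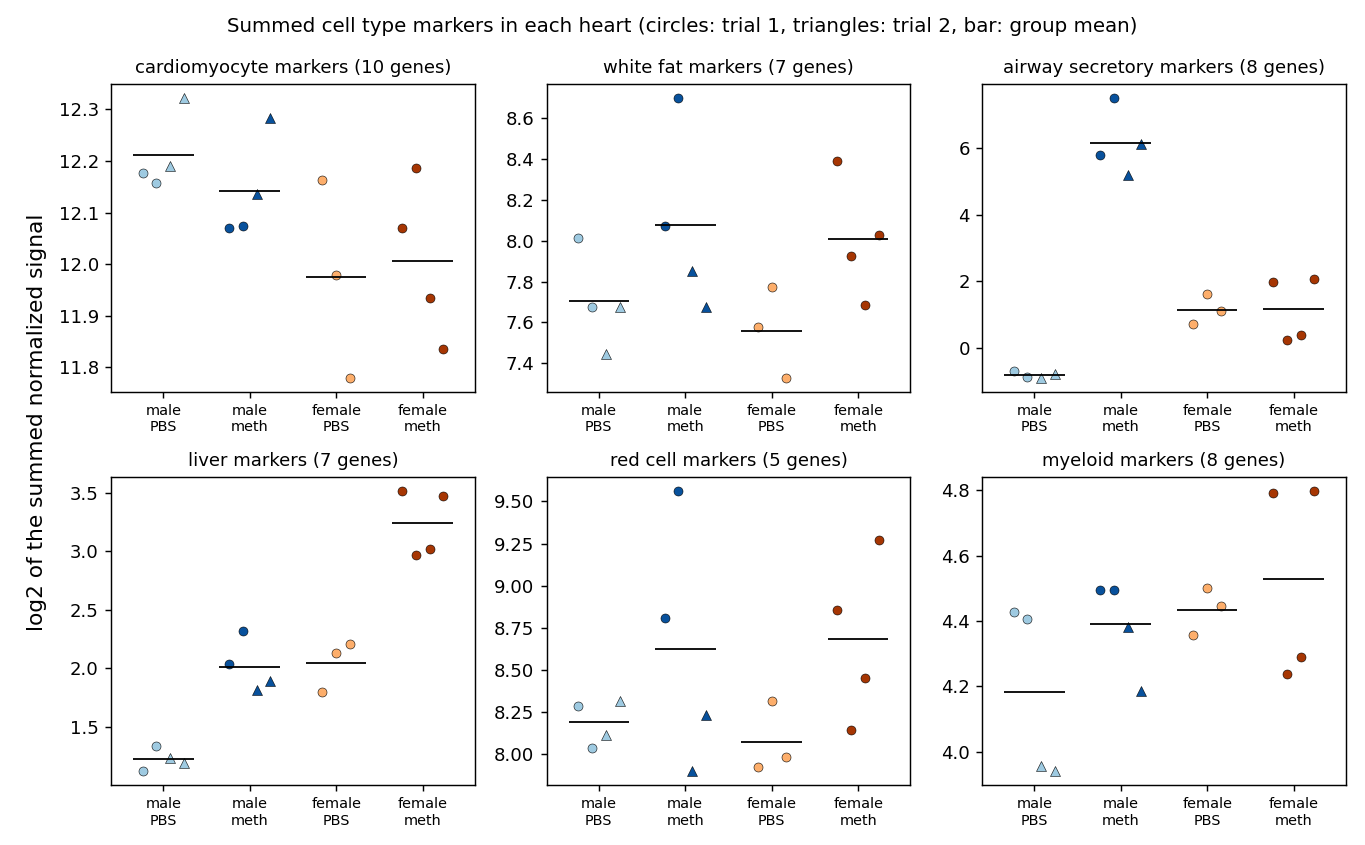
Log2 of the summed normalized signal (y) of markers of 6 cell types in each of 15 hearts by group (x), with circles for trial 1, triangles for trial 2 and bars for group means. Cardiomyocyte sums overlap between treatments, while airway sums are higher in male meth hearts and liver sums are higher after meth within each sex.

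The other marker lists had 0 members past the threshold. Atrial genes, led by Nppa, had a median log2 fold change of 0.35 over 6 genes, all above 0, with sums of 9.57 through 10.03 to 10.40 in meth hearts and 9.22 through 9.73 to 10.18 in PBS hearts. Red cell genes, led by the globin gene Hba-a1, had a median of 0.52 over 5 genes, all above 0, with sums of 7.90 through 8.63 to 9.56 and 7.92 through 8.11 to 8.32. Medians were 0.30 for brown fat, -0.061 for skeletal muscle, 0.14 for myeloid cells, 0.036 for T cells, -0.082 for B cells and 0.36 for alveolar cells. The male and female medians had opposite signs, at -0.098 and 0.047 for skeletal muscle, 0.32 and -0.37 for T cells and 0.22 and -0.38 for B cells. Of the T cell genes, 2 of 6 tested were well above background on all 15 arrays. The alveolar median rests partly on background and is not split by sex. Of the alveolar genes, 1 of 4 tested was well above background on all 15 arrays, and Sftpc was on 0 of 4 male meth and 0 of 4 male PBS arrays. A value that misses the threshold does not show that levels were equal.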

How the data were processed

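Hearts of 15 mice were measured on 15 Agilent 1-colour arrays with 45018 spots each, 43379 of them not controls. Per the file headers, the deposited raw files hold a background-subtracted, processed fluorescence intensity for each spot, made by the authors with Agilent Feature Extraction. The version is 10.5.1.1 in the file headers and 9.1 in the processing notes. The deposited series table holds log2 values, which equalled the log2 of the processed signal plus a constant for each array, so that every column had the same 75th percentile (8.39 to 8.4). Its column medians were 5.24, 5.25, 5.21, 5.21, 5.28, 5.19, 5.25, 5.33, 5.28, 5.35, 5.38, 5.29, 5.32, 5.26 and 5.30. No spot was saturated, and 61.4% to 71.4% of the probes on each array were well above background.

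Here the spots of each probe were averaged as log2 processed signal, leaving out spots that the software marked as population or uniformity outliers, and shifted by the 75th percentile of the array. A probe was well above background on an array where at least 1 in 2 of its spots was, and was tested if that held on 3 or more arrays. limma 3.58.1 in R 4.3.3 with the data.table package, version 1.17.8, fitted the 4 groups of sex and treatment and the trial. The contrast was the average of the male and female effects (meth minus PBS), with Benjamini-Hochberg adjustment over all probes tested and a threshold of 0.05. The pipeline was tested on simulated data. Figures and promoter matches used Python 3.11.15, pandas 2.3.3, numpy 2.4.6 and matplotlib 3.10.9.

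Probes were given genes through RefSeq accessions, which named 26918 of 41174 probes. A gene is given by its tested probe with the highest mean signal, and its other probes are alternatives. The trial was read from the sample titles. For 3 female arrays the source name gives trial 2, which was tried as an alternative. By the labels, arrays come from separate mice.

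Genes were named by a rule: the 12 shared genes with the largest change in each direction whose arrays did not overlap within either sex, all clock genes tested, up to 4 members past the threshold in each other list, the 2 most abundant members of lists with none, given as levels, and the most abundant gene of each marker list. Some genes that the rule names are not reported here. Members and lists were chosen with earlier results of these data known. Alternatives were normexp background correction (offset 50, on the median signal and local background), quantile and median scaling, the authors' table, and either no filter or one requiring all 15 arrays. Others were the trial from the source name, no trial, slide or replicate as a block, a common treatment effect, array weights, trial 1 alone, the disputed arrays left out and each array left out. The paired t-test named in the methods, with pairs taken by replicate number, and a t-test without pairs were also run. Both pooled the sexes and had no term for sex or trial.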

Additional observations from a re-analysis of the deposited data

Results flagged for a closer look

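A difference between the sexes, tested as male minus female effect on the log2 scale, passed for Scgb3a1 at 4.57 and for the heat shock genes Hspa1b at -1.32, Hspa1a at -1.43 and Dnaja1 at -0.94, all well above background on 15 arrays. For airway markers the fit gave male minus female values of 7.35 for Bpifa1, 6.79 for Ltf and 10.77 for Scgb1a1. It gave 4.20 for Tmem212, 3.96 for Dynlrb2 and 3.37 for Foxj1. These are outputs of the fit and not sizes of a difference, since male PBS values were partly or wholly background. The test passed them, but for the same reason it cannot decide whether the sexes differed, and no conclusion is drawn. Each of these markers was well above background on 4 of 4 male meth arrays. Scgb1a1 was well above background on 2 of 4 male PBS arrays and the others on 0 of 4, and Tmem212 and Foxj1 on male meth arrays only, so that Tmem212 and Foxj1 entered the test through the group in which they were high. With the replicate block 0 probes passed for the difference, and without the arrays of disputed trial 2 did. A single array stood far from the others of its group in 4 of 213 groups of 4 over 71 genes, where chance marks about 1 in 20 groups. These were Fam107a at -2.20 in male meth trial 2 replicate 1 (the other arrays of its group -1.90 to -1.84), Rasl11a at -4.18 in female meth replicate 3 (the other arrays of its group -3.90 to -3.87), Aldh1a1 at 3.63 in male meth trial 1 replicate 2 (the other arrays of its group 3.06 to 3.11) and Bpifa1 at -7.49 in male PBS trial 2 replicate 1 (the other arrays of its group -7.25 to -7.22), in normalized log2 signal. The Bpifa1 values there are background, as 0 of 4 male PBS arrays passed the background test for it.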

How the results depend on the processing

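Counts are given in the order probes past the threshold, shared higher, shared lower and past for the difference between the sexes, 751, 215, 378 and 39 in the fit reported. They were 111, 66, 28 and 14 with normexp, 701, 225, 326 and 39 with quantile normalization, 635, 241, 242 and 38 with the median shift, 750, 217, 375 and 39 with the authors' table, 421, 128, 176 and 38 without a filter and 748, 268, 471 and 12 with a filter on all 15 arrays. They were 709, 236, 322 and 47 with the trial from the source name, 417, 144, 163 and 42 without the trial, 1253, 355, 695 and 51 with the slide as a block, 970, 293, 496 and 52 with array weights, 115, 39, 22 and 9 for trial 1 alone and 440, 141, 212 and 2 without the arrays of disputed trial. Ranges over the fits without 1 array were 402 to 746, 126 to 223, 162 to 371 and 28 to 49. The common treatment effect gave 523, 178, 258, the methods' paired t-test 4, 2, 2 (4257 at an unadjusted p under 0.05) and a t-test without pairs 120, 50, 60 (3048 unadjusted), and these 3 give no count for the difference. The replicate block, as a check for pairing, gave 571, 138, 314 and 0. Deviations of a meth array and of the PBS array with the same replicate number from the means of their own groups correlated, over 23808 probes, at -0.085 in trial 1 males, 0.30, 0.44 and 0.66 in females and 0.0099 in trial 2 males. This is a hint from the data, the labels do not say that numbers pair the mice, and each male and each female pair also shared a slide. The count past the threshold moved by more than 1.5 times without male meth trial 1 replicate 2, male PBS trial 1 replicate 1, female PBS replicate 1, female PBS replicate 2, male PBS trial 2 replicate 1 or male PBS trial 2 replicate 2, shared higher without female PBS replicate 1 or male PBS trial 2 replicate 2, and shared lower without any of these 6 or male PBS trial 1 replicate 2, male meth trial 2 replicate 1 or male meth trial 2 replicate 2. Over 71 named genes and 2220 values, 1776 kept direction and side of the threshold, 440 missed it, 4 newly passed it and 0 turned. Of 66 genes past the threshold, 19 passed in every limma alternative. With the paired t-test 65 of the 66 missed it, and with the t-test without pairs 42 did. Shared lower probes tended to be dim, as given above, and why counts moved between settings was not tested.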
